A study of Drosophila melanogaster with 6 samples.

Results

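The data describe ImpL2 and 9 further genes of the ecdysone and juvenile hormone systems in Drosophila melanogaster S2 cells. The 10 genes are the nuclear receptors usp and Hr78, the juvenile hormone receptor Met, the hydrolase gene Jheh1, the juvenile hormone-inducible genes JhI-21, JhI-26 and JhI-1, and the ecdysone-inducible genes Eip71CD, Eip63E and ImpL2. They were chosen by name from a deposited table of RPKM values, that is, reads per kilobase of sequence scaled to the number of reads, and the columns listed under each symbol were summed. All 10 had a mean of at least 1 RPKM, as did the 4019 symbols tested in all. For symbols outside these 10 and the gene lists used below, only columns that averaged 1 RPKM or more were summed. Because the genes were picked with results of these samples known, their levels and differences are given as a description. How many of them pass the threshold of the fit across all symbols is stated beside the share of all symbols that do, and nothing is read from those counts.

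The 6 samples are of S2, a line grown from embryos that resembles blood cells, and their messenger RNA was sequenced in 3 groups of 2. The groups are knockdown of the histone chaperone NAP-1 (gene Nap1), knockdown of the histone acetyltransferase CBP (gene nej), and a control knockdown. The labels name a single cell line, ordinary serum-containing medium in all groups, and no added hormone; the agents used for the knockdowns and for the control are not given in them. Whether replicates were grown as separate cultures is not in the labels, so that the p-values below reflect the spread between libraries, possibly a technical one, and no more.

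Ecdysone is the steroid that times moulting and metamorphosis in insects. It acts through a nuclear receptor made of EcR and its partner Ultraspiracle, the product of usp, and through a cascade of further nuclear receptors and early response genes. Juvenile hormone is a sesquiterpenoid that tempers the response to ecdysone in the larva; it binds Met or its paralogue gce, and is broken down by epoxide hydrolases and esterases. ImpL2 links these systems to growth, because its product is a secreted immunoglobulin-family protein that binds insulin-like peptides and dampens insulin signalling.

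ImpL2 had the highest mean level of the 10 genes and the widest range between groups. It stood at 95.0 and 183 RPKM in NAP-1 knockdown cells, at 11.7 and 3.53 RPKM in CBP knockdown cells, and at 379 and 233 RPKM in control knockdown cells. The 3 groups did not overlap: both CBP knockdown samples were far below all others, and both NAP-1 knockdown samples lay between them and the controls. The group means were 139 ± 62.4 RPKM after NAP-1 knockdown, 7.63 ± 5.802 after CBP knockdown and 306 ± 103 in the controls (SD, n = 2 each). The CBP knockdown mean was thus 2.50% of the control mean, and the NAP-1 knockdown mean was 45.5% of it.

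On the log2(RPKM + 1) scale, which understates changes of low genes and is used for all differences here, ImpL2 was lower by -5.30 ± 0.56 (SE) in CBP knockdown than in control cells. The difference of NAP-1 knockdown from control was -1.16 ± 0.56, about 2 standard errors, and that of NAP-1 knockdown from CBP knockdown was 4.13 ± 0.56. In bulk samples such as these, fewer cells that carry a transcript and less of it per cell cannot be told apart. Both listed ImpL2 columns had their lowest values in the CBP knockdown samples. The column of the mRNA NM_001274480 carried 99.3% of the summed level in NAP-1 knockdown, 98.7% in CBP knockdown and 99.4% in control cells. The small column named by the symbol alone held 0.882 and 1.14 RPKM after NAP-1 knockdown, 0.125 and 0.0818 RPKM after CBP knockdown, and 2.15 and 1.51 RPKM in the controls, in the same order of groups as the large one.

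**Figure D1:**
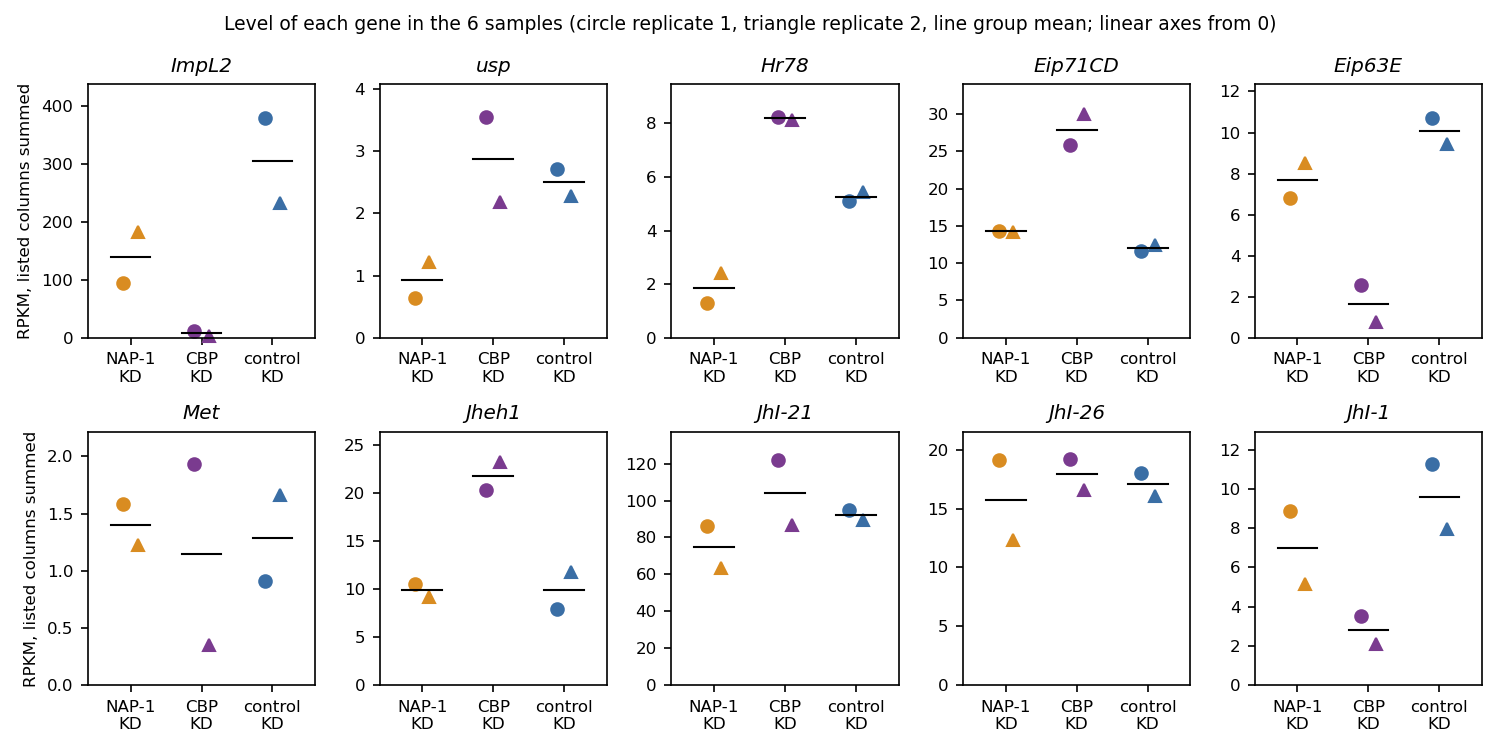
Level of each of the 10 genes in RPKM (vertical axes, linear from 0, a separate scale per gene) in the NAP-1 knockdown, CBP knockdown and control knockdown samples; circles are replicate 1, triangles replicate 2, and lines group means. ImpL2, JhI-1 and Eip63E are lowest in both CBP knockdown samples, Jheh1 and Eip71CD are highest there, and usp and Hr78 are lowest in both NAP-1 knockdown samples.

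Of the receptors, usp and Hr78 stood apart in the NAP-1 knockdown samples. The gene usp, which encodes the insect counterpart of the vertebrate retinoid X receptors, was at 0.640 and 1.21 RPKM in NAP-1 knockdown cells, at 3.56 and 2.18 RPKM in CBP knockdown cells and at 2.71 and 2.28 RPKM in control cells. Both NAP-1 knockdown samples were below the other 4, whereas the CBP knockdown and control samples overlapped. The difference in usp was -0.87 ± 0.34 between NAP-1 knockdown and control, -0.999 ± 0.34 between NAP-1 and CBP knockdown, and 0.13 ± 0.34 between CBP knockdown and control (log2, SE).

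Hr78 encodes an orphan nuclear receptor that is needed for the ecdysone response at metamorphosis. Its summed level was 1.30 and 2.42 RPKM after NAP-1 knockdown, 8.24 and 8.12 RPKM after CBP knockdown, and 5.11 and 5.43 RPKM in the controls. The 3 groups did not overlap, with NAP-1 knockdown at the bottom and CBP knockdown at the top. The NAP-1 knockdown mean was 35.3% of the control mean and 22.7% of the CBP knockdown mean, and the CBP knockdown mean was 1.55-fold the control mean. On the log2 scale the differences were -1.16 ± 0.31 for NAP-1 knockdown against control, 0.55 ± 0.31 for CBP knockdown against control, and -1.71 ± 0.31 for NAP-1 against CBP knockdown.

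Within Hr78 the groups parted in the columns of its mRNAs. The mRNA NM_001202223 was at 0.215 and 1.63 RPKM in NAP-1 knockdown cells, at 6.33 and 6.82 RPKM in CBP knockdown cells, and at 4.40 and 4.07 RPKM in control cells. The column named by the symbol alone was at 1.08 and 0.754 RPKM after NAP-1 knockdown, 1.34 and 1.17 RPKM after CBP knockdown, and 0.623 and 1.29 RPKM in the controls, so that here NAP-1 knockdown and control overlapped. The share of the listed Hr78 signal in NM_001202223 was 16.5% and 67.5% in the NAP-1 knockdown samples, 76.8% and 84.0% in the CBP knockdown samples, and 86.2% and 74.9% in the controls. NAP-1 knockdown replicate 1 stood far below the other 5 samples in this share, and replicate 2 lay closer to control replicate 2 than to replicate 1 of its own group. The remaining column, NM_001202222, stayed below 1 RPKM in all 6 samples. The table gives 3 columns for Hr78, whereas RefSeq lists 6 transcripts on release 6 of the genome, so the summed level is not that of the whole gene.

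**Figure D2:**
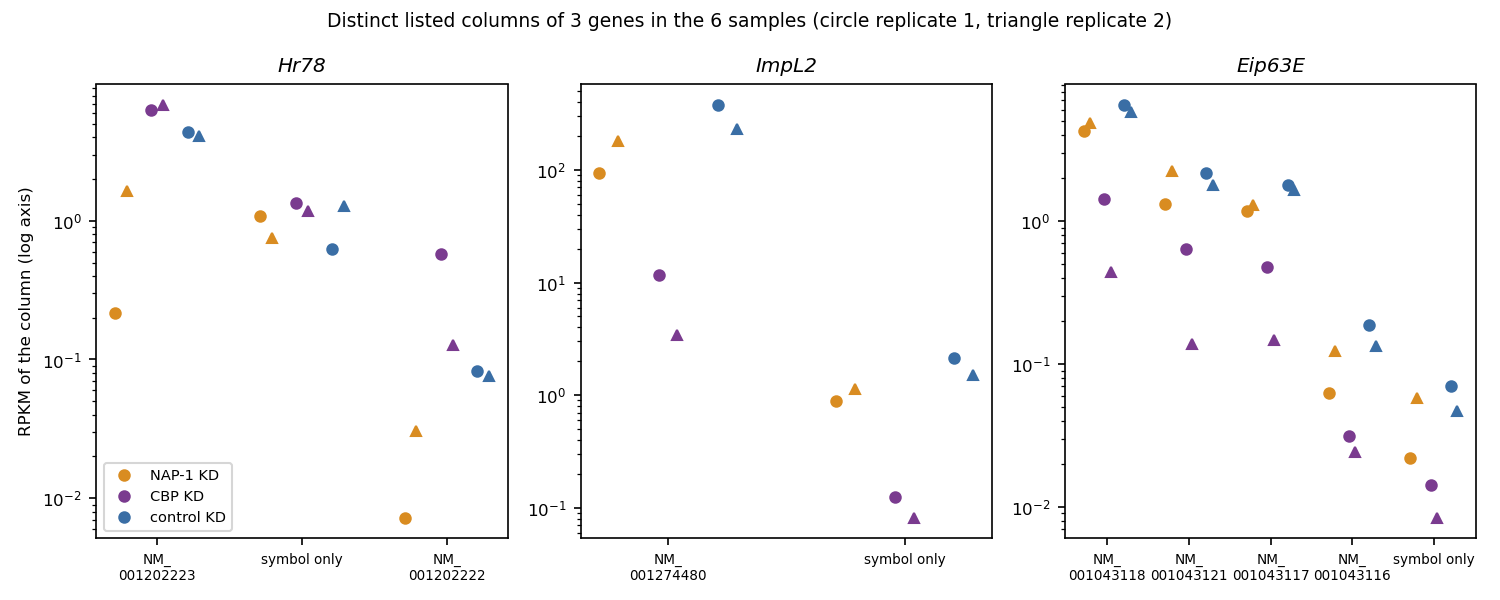
RPKM (log axis) of each distinct listed column of Hr78, ImpL2 and Eip63E, named by RefSeq mRNA or by the symbol alone; colours mark NAP-1 knockdown, CBP knockdown and control samples, circles replicate 1 and triangles replicate 2. The NAP-1 knockdown samples of Hr78 are low for NM_001202223 and overlap the controls for the symbol-only column, while all columns of ImpL2 and Eip63E are lowest after CBP knockdown.

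Met, the bHLH-PAS receptor of juvenile hormone, had the lowest mean level of the 10 genes. It was at 1.58 and 1.22 RPKM in NAP-1 knockdown cells, at 1.94 and 0.350 RPKM in CBP knockdown cells and at 0.913 and 1.66 RPKM in control cells. All 3 groups overlapped, and the CBP knockdown samples differed between themselves more than any pair of group means did. The differences were 0.09 ± 0.45 for NAP-1 knockdown against control, -0.18 ± 0.45 for CBP knockdown against control and 0.27 ± 0.45 for NAP-1 against CBP knockdown, none larger than its standard error.

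Jheh1, which encodes an epoxide hydrolase that inactivates juvenile hormone, was at 10.6 and 9.15 RPKM after NAP-1 knockdown, 20.3 and 23.3 RPKM after CBP knockdown, and 7.96 and 11.8 RPKM in the controls. Both CBP knockdown samples lay above the other 4, and NAP-1 knockdown lay within the control range. The CBP knockdown mean was 2.21-fold the control mean, and the log2 differences were 1.09 ± 0.28 for CBP knockdown against control, 0.02 ± 0.28 for NAP-1 knockdown against control and -1.07 ± 0.28 for NAP-1 against CBP knockdown. Jheh1, Jheh2 and Jheh3 follow each other in the genome annotation BDGP6 with 1 other gene among them. Jheh3 was at 5.57 and 2.19 RPKM in NAP-1 knockdown cells, 4.34 and 3.51 RPKM in CBP knockdown cells, and 2.38 and 1.98 RPKM in control cells. Both CBP knockdown samples of Jheh3 were above both controls, but its difference of 0.63 ± 0.40 did not pass the test (limma, Benjamini-Hochberg adjusted p = 0.263), and Jheh2 stayed below 1 RPKM in every sample.

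The 3 JhI genes, found in S2 cells by their induction with juvenile hormone, did not share a pattern. JhI-21, which encodes an amino acid transporter, was at 86.2 and 63.6 RPKM in NAP-1 knockdown cells, at 122 and 86.8 RPKM in CBP knockdown cells and at 95.1 and 89.2 RPKM in control cells. Both NAP-1 knockdown samples were below both controls, at a difference of -0.31 ± 0.30, while the CBP knockdown samples enclosed the controls, at 0.16 ± 0.30. JhI-26 was at 19.1 and 12.3 RPKM after NAP-1 knockdown, 19.2 and 16.6 RPKM after CBP knockdown, and 18.1 and 16.1 RPKM in the controls. Its groups overlapped, and its differences were -0.14 ± 0.29 for NAP-1 knockdown and 0.07 ± 0.29 for CBP knockdown against control, below their standard errors. Under quantile normalization the CBP knockdown differences of JhI-21 and JhI-26 turned sign, at -0.024 and -0.056.

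JhI-1, annotated as RNaseZ, the endonuclease that trims the 3′ ends of transfer RNAs, was at 8.88 and 5.14 RPKM in NAP-1 knockdown cells, 3.54 and 2.10 RPKM in CBP knockdown cells, and 11.3 and 7.94 RPKM in control cells. Both CBP knockdown samples lay below the other 4, and NAP-1 knockdown overlapped the controls. The CBP knockdown mean was 29.3% of the control mean, and the differences were -1.48 ± 0.37 for CBP knockdown against control, -0.43 ± 0.37 for NAP-1 knockdown against control and 1.05 ± 0.37 for NAP-1 against CBP knockdown. After a trend on transcript length had been removed, the difference of CBP knockdown from control was -0.89.

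The ecdysone-inducible pair Eip71CD and Eip63E lay on opposite sides of the controls after CBP knockdown. Eip71CD, annotated as MsrA, encodes the methionine sulfoxide reductase that repairs oxidized methionine. It was at 14.4 and 14.2 RPKM after NAP-1 knockdown, 25.8 and 29.95 RPKM after CBP knockdown, and 11.6 and 12.5 RPKM in the controls. The 3 groups did not overlap and the controls were lowest. The CBP knockdown mean was 2.31-fold the control mean, at 1.14 ± 0.24 on the log2 scale, whereas NAP-1 knockdown was 1.18-fold the control mean, at 0.23 ± 0.24. The difference between NAP-1 and CBP knockdown was -0.92 ± 0.24.

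Eip63E encodes a cyclin-dependent kinase. It was at 6.83 and 8.54 RPKM in NAP-1 knockdown cells, at 2.57 and 0.760 RPKM in CBP knockdown cells and at 10.7 and 9.45 RPKM in control cells. The 3 groups did not overlap, and their order was that of ImpL2: CBP knockdown lowest, NAP-1 knockdown next and control highest. The CBP knockdown mean was 16.5% of the control mean, and the differences were -2.14 ± 0.39 for CBP knockdown and -0.36 ± 0.39 for NAP-1 knockdown against control, and 1.79 ± 0.39 for NAP-1 against CBP knockdown. The table lists 10 columns for Eip63E, of which 5 hold distinct values, and all 5 were lower in both CBP knockdown samples than in both controls. The most abundant of them, NM_001043118, took 59.1% of the summed level after NAP-1 knockdown, 55.9% after CBP knockdown and 61.0% in the controls.

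**Figure D3:**
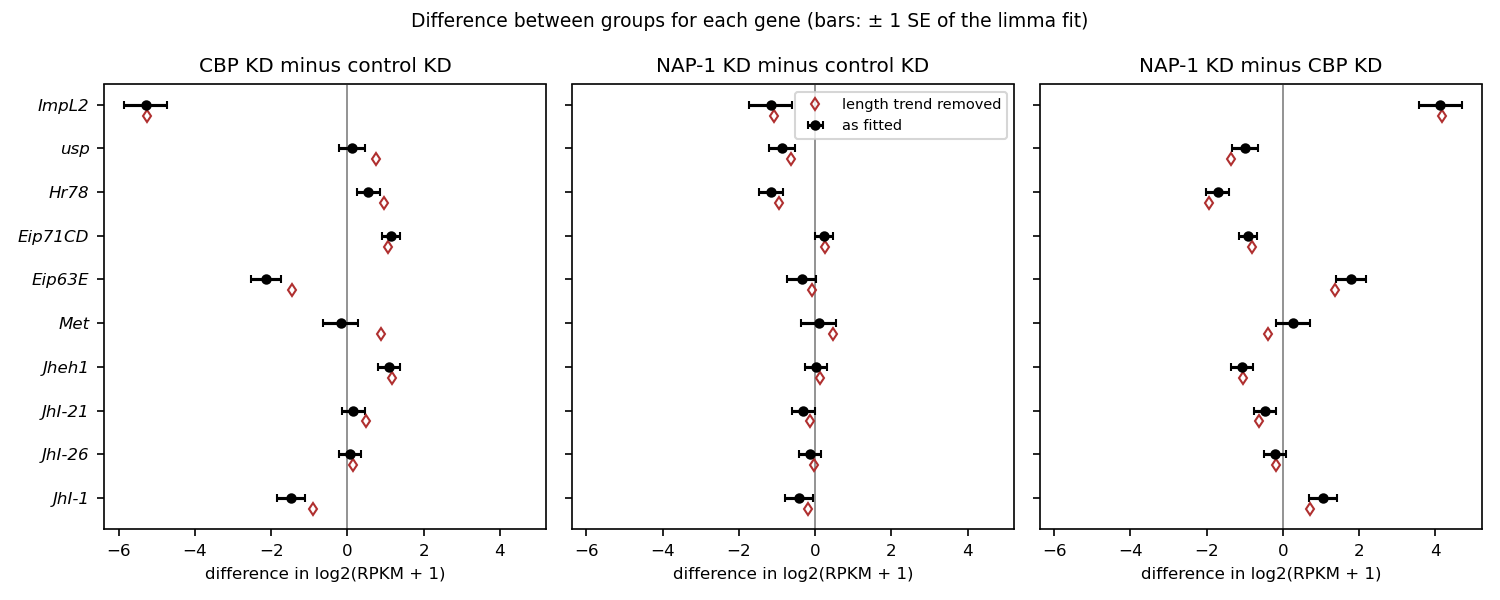
Difference in log2(RPKM + 1) for each of the 10 genes (rows) in CBP knockdown minus control, NAP-1 knockdown minus control and NAP-1 knockdown minus CBP knockdown; points with bars are the fitted value ± 1 SE, and open diamonds the value after a trend on transcript length was removed. ImpL2 has the largest difference in the panels that hold CBP knockdown, at -5.30 and 4.13, and the NAP-1 knockdown panel has no point beyond -1.16.

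Counted over the 10 genes, 2 were called higher (Jheh1 and Eip71CD) and 3 lower (ImpL2, JhI-1 and Eip63E) in CBP knockdown than in control cells, a call being a Benjamini-Hochberg adjusted p under 0.05 in a limma fit across all 4019 symbols. Over all symbols tested, 8.53% were called higher and 17.4% lower in this comparison, and since the genes were chosen with it known, nothing is read from their count. The calls rest on few libraries. None of the 5 was made when CBP knockdown replicate 2 or control replicate 1 was left out, fits in which 0 of the 4019 symbols were called, ImpL2 alone was called without control replicate 2, and 3 were called without CBP knockdown replicate 1. In size, the ImpL2 difference lay between -6.04 and -4.55 over the 6 fits with a library left out. Between NAP-1 knockdown and control, 0 of the 10 genes were called by limma, beside 0.0249% of all symbols in either direction. At an unadjusted p under 0.05 there were 2, usp and Hr78, both lower, beside 139 of all 4019 symbols (3.46%), 101 of them lower. For NAP-1 against CBP knockdown, ImpL2 and Eip63E were called higher and Hr78 lower, beside 2.99% of all symbols called higher, 2.36% lower and 5.35% in either direction. The 3 calls were lost with pseudocount 0.1, 4 samples in the fit, the replicate block or single features. The call of Eip63E was also lost with the length trend removed, no variance trend or a minimum mean of 5 RPKM. With a library left out, that count of 3 lay between 0 and 2, being 0 without NAP-1 knockdown replicate 2, either CBP knockdown sample or either control.

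Samples did not overlap between CBP knockdown and control for 3 of the 10 genes in the higher direction (Hr78, Jheh1 and Eip71CD) and 3 in the lower (ImpL2, JhI-1 and Eip63E), where 33.7% and 42.3% of all symbols did the same. Between NAP-1 knockdown and control this held for Eip71CD in the higher direction, beside 8.06% of all symbols. In the lower direction it held for 5 genes, namely ImpL2, usp, Hr78, JhI-21 and Eip63E, beside 26.2% of all symbols. Between NAP-1 and CBP knockdown, ImpL2, JhI-1 and Eip63E did not overlap in the higher direction, beside 32.8% of all symbols, and usp, Hr78, JhI-21, Jheh1 and Eip71CD did not overlap in the lower, beside 29.8%. The comparisons of the 2 knockdowns with control share the same control samples, so ImpL2 and Eip63E, low in both, rest on the same 2 control libraries.

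The 10 genes vary in level and in annotation. By mean level per length over the 6 samples they ran from ImpL2 at 151 RPKM and JhI-21 at 90.5 RPKM, through Eip71CD, JhI-26 and Jheh1 at 18.1, 16.9 and 13.8 RPKM, to JhI-1 and Eip63E at 6.48 RPKM each, Hr78 at 5.10, usp at 2.10 and Met at 1.28 RPKM. In BDGP6, 7 of the 10 overlap another annotated gene: ImpL2, usp, Hr78, JhI-21, JhI-26, Jheh1 and Eip63E. Met, JhI-1 and Eip71CD overlap none, and the share over all genes was not computed. For Hr78, JhI-26 and Jheh1 the partner is an antisense RNA. JhI-21 has PLCXD on the opposite strand, and usp has 1 of its 2 partners there. The library kit keeps strand, but whether the counting used it is not stated, so reads of these genes and of their partners cannot be told apart. CG46460, the gene that overlaps ImpL2, lies on the same strand as ImpL2, so that strand would not part their reads.

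Differences between CBP knockdown and control varied with transcript length. With symbols sorted by transcript length into 5 bins, the median difference ran from 0.29 in the bin of the shortest transcripts to -1.05 in the bin of the longest. Among the genes that differed, ImpL2 and Eip71CD belong to bin 2, Jheh1 to bin 3, JhI-1 to bin 4 and Eip63E to bin 5. With the trend removed, the differences of CBP knockdown from control were -5.25 for ImpL2, 1.07 for Eip71CD, 1.16 for Jheh1 and -1.45 for Eip63E, and 4 of the 5 calls were made; JhI-1 was the exception. For Met, also in bin 5, the sign turned, at 0.87.

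Other genes of the hormone systems were read from lists of ecdysone, juvenile hormone and insulin genes. Of these, 67 have a listed column and 26 reached a mean of 1 RPKM. That mean was taken over all 6 samples, so a gene low in 1 group could reach it through the others. The deposited table stops at 16384 columns. List genes without a column in it could not be read, so the lists are covered in part. Several central genes were below a mean of 1 RPKM. Listed columns of EcR, the ecdysone receptor itself, summed to between 0.00105 and 0.0980 RPKM in the 6 samples, and Eip74EF and Eip75B, early ecdysone targets, stayed below 0.1 RPKM throughout. The early gene br and the juvenile hormone target Kr-h1 had a mean under 1 RPKM in every group. The paralogue of Met, gce, was at 0.598 and 1.34 RPKM in NAP-1 knockdown cells, 0.541 and 0.170 RPKM in CBP knockdown cells, and 1.05 and 1.27 RPKM in control cells. InR, the insulin receptor, was at 0.288 and 0.863 RPKM after NAP-1 knockdown, 0.110 and 0.137 RPKM after CBP knockdown, and 3.80 and 0.723 RPKM in the controls. Many genes are listed by part of their transcripts only, so these low sums do not stand for whole genes; foxo and Thor were not analysed here.

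In CBP knockdown against control, 0 of the 26 tested list genes were called higher, beside 8.53% of all symbols. In the lower direction 12 were called, beside 17.4% of all symbols (limma, Benjamini-Hochberg adjusted p under 0.05 over all symbols). At an unadjusted p under 0.05, 0 of the 26 were higher, where 662 of all 4019 symbols were, and 16 were lower, where 1095 of all symbols were. The median difference of the 26 genes was -1.13, against -0.15 over all symbols tested. The lists too were chosen with earlier results of these data known. These counts and medians, and those of the single lists below, are therefore a description. With the length trend removed, 7 of 25 were called lower, where 5.95% of the 3951 symbols with a length were. None of the 12 was called without CBP knockdown replicate 2 or without control replicate 1, and 6 were called without control replicate 2.

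Insulin and Tor signalling accounted for 8 of those 12, out of 9 tested genes, beside 17.4% of all symbols called lower. The list held 39 genes, of which 19 outside the 10 had a column. The median over the 9 tested was -1.998. Ilp6, Pi3K21B, eIF-4E, S6k and path reached the required mean of 1 RPKM only through the other groups. Their CBP knockdown means were 0.860, 0.884, 0.846, 0.725 and 0.240 RPKM. Ilp6, an insulin-like peptide, fell to 1.06 and 0.657 RPKM in CBP knockdown cells, against 10.8 and 8.44 RPKM in control cells (-2.51 ± 0.41, limma adjusted p = 0.0162). Pi3K21B, the regulatory subunit of phosphatidylinositol 3-kinase, fell to 1.1 and 0.668 RPKM in CBP knockdown cells, against 11.2 and 7.38 RPKM in control cells (-2.43 ± 0.35, limma adjusted p = 0.0161). Neither gene's samples overlapped between the groups. The cap-binding factor eIF-4E (-1.998 ± 0.31) and 14-3-3zeta, an adaptor that binds phosphorylated signalling proteins (-3.52 ± 0.58), fell as well, at limma adjusted p = 0.0161 and 0.0162. The kinase S6k, the amino acid transporter path, the kinase sgg and 14-3-3epsilon were also called lower, but not after the length trend was removed. Tor was at -0.94 ± 0.32 and did not pass (limma adjusted p = 0.0675).

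On the ecdysone side, ImpL3 and crol were called lower after CBP knockdown, out of 4 tested early and inducible genes, beside 17.4% of all symbols. ImpL3, which encodes lactate dehydrogenase, fell to 89.9 and 125 RPKM in CBP knockdown cells, against 325 and 388 RPKM in control cells (-1.74 ± 0.31, limma adjusted p = 0.0173). The zinc finger gene crol was at -2.38 ± 0.47 (limma adjusted p = 0.0203), and at -1.07 and no longer called with the length trend removed. Its CBP knockdown mean was 0.908 RPKM, so it too reached the required mean of 1 RPKM only through the other groups. Of 4 tested genes of the receptor and cofactor list (Smr, Hsp83, Hsc70-4 and Hr96), 1 nuclear receptor of the cascade (ERR) and 2 synthesis genes (woc and Npc1a), 0 were called in limma. Hsp83 and Npc1a had an unadjusted p under 0.05, both in the lower direction, beside 27.2% of all symbols.

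On the juvenile hormone side, 2 of 6 tested genes were called lower after CBP knockdown, beside 17.4% of all symbols. Fpps, the farnesyl pyrophosphate synthase that supplies the precursor of juvenile hormone, fell to 10.9 and 4.05 RPKM in CBP knockdown cells, against 63.96 and 42.1 RPKM in control cells (-2.77 ± 0.45, limma adjusted p = 0.0162). Chd64, a calponin-family protein known to bind a juvenile hormone response element, was at -2.17 ± 0.50 (limma adjusted p = 0.0282). Hmgs, an enzyme upstream of Fpps, was at 0.03 ± 0.31 and was not called.

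**Figure D4:**
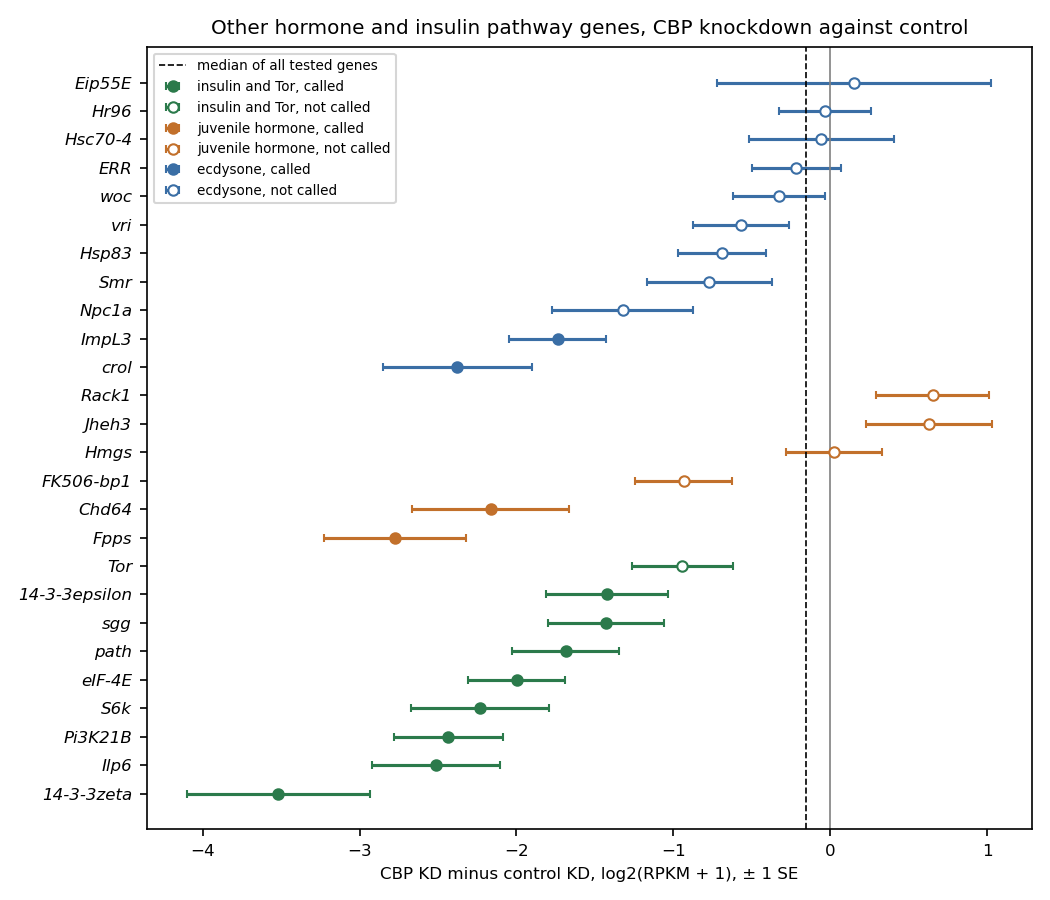
Difference in log2(RPKM + 1) between CBP knockdown and control (horizontal axis, ± 1 SE) for the 26 other hormone and insulin genes tested; filled points were called at an adjusted p under 0.05, colours mark the lists, and the dashed line is the median of all tested genes at -0.15. The 8 called insulin and Tor genes lie between -1.42 and -3.52, and the ecdysone list holds 2 called genes.

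In NAP-1 knockdown against control, 0 of the 26 genes were called by limma and 1, eIF-4E, had an unadjusted p under 0.05, at -0.87 ± 0.31, beside 3.46% of all symbols. In NAP-1 against CBP knockdown, 0 of the 26 were called lower, beside 2.36% of all symbols. At an unadjusted p under 0.05, 0 were lower, beside 13.9% of all symbols, and 11 were higher, where 712 of all 4019 symbols were. Pi3K21B (1.80 ± 0.35, limma adjusted p = 0.0472) and 14-3-3zeta (2.68 ± 0.58, limma adjusted p = 0.0499) were called higher, beside 2.99% of all symbols. Both calls were lost with the length trend removed (limma adjusted p = 0.0846 and 0.0777), and with pseudocount 0.1, a minimum mean of 5 RPKM, 4 samples in the fit, the replicate block, no variance trend or single features. Without NAP-1 knockdown replicate 2, either CBP knockdown sample or either control that count was 0.

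The genes whose 6 values ran closest to those of ImpL2 were found by the distance between log2(RPKM + 1) values centred on each gene's mean. In rising order of distance they were Hrb27C at 1.34, CG7564 at 1.36, mod at 1.41, CG12360 at 1.55 and CG3107 at 1.64, where the median over all symbols was 5.62. Hrb27C encodes an RNA-binding protein of the hnRNP family, and was at 43.3 and 133 RPKM in NAP-1 knockdown cells, 15.3 and 2.50 RPKM in CBP knockdown cells, and 153 and 130 RPKM in control cells. The nucleolar protein gene mod was at 15.6 and 17.0 RPKM after NAP-1 knockdown, 2.35 and 0.154 RPKM after CBP knockdown, and 64.2 and 22.0 RPKM in the controls. All 5 were lower in both CBP knockdown samples than in the other 4, as ImpL2 was, and NAP-1 knockdown overlapped the controls for Hrb27C, CG7564 and CG3107 but not for mod and CG12360. They were picked for this likeness, so it is a description over 6 samples.

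**Figure D5:**
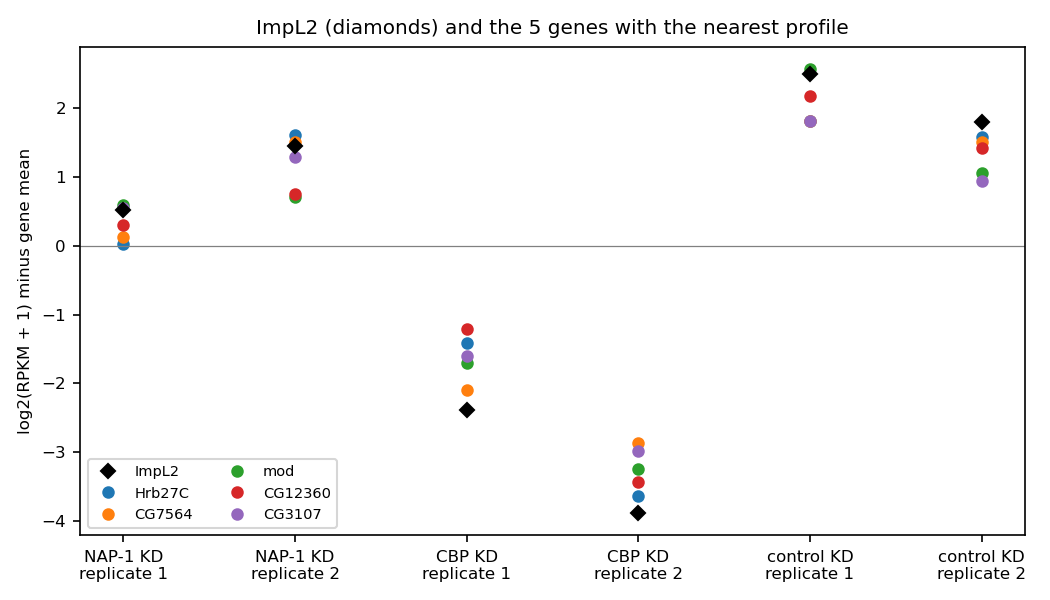
Values of log2(RPKM + 1) minus the gene's mean over the 6 samples (vertical axis) for ImpL2 (diamonds) and the 5 genes nearest to it (circles), in the NAP-1 knockdown, CBP knockdown and control samples. ImpL2 lies at -2.40 and -3.89 in the CBP knockdown samples, below all 5, and above 0 in the other 4 samples.

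For the libraries as a whole, the authors report 4162019 to 5362319 alignments per sample. Of the targeted genes, Nap1 was at 20.6 and 26.5 RPKM in NAP-1 knockdown cells, against 220 and 243 RPKM in control cells (-3.25 ± 0.27, limma adjusted p = 0.0294). In CBP knockdown cells Nap1 was at 325 and 365 RPKM, above both controls. For nej the listed columns held 0.899 and 0.364 RPKM in CBP knockdown cells, against 3.25 and 2.47 RPKM in control cells (-1.26 ± 0.37, limma adjusted p = 0.0463). With the length trend removed the difference of nej was 0.45 and was not called. In NAP-1 knockdown cells nej was at 1.26 and 2.41 RPKM, also below both controls. Over all symbols 343 were called higher and 699 lower after CBP knockdown, 67.1% of calls being lower. Median-of-ratios scaling gave 56.1% and quantile normalization gave 53% for that share. With the length trend removed the balance turned, with 378 symbols called higher and 235 lower, 38.3% of calls being lower. The median difference of all symbols was -0.15 as deposited, 0.01 under median-of-ratios scaling and 0.12 under quantile normalization. Both CBP knockdown samples had fewer tested symbols at 1 RPKM or more, 3469 in replicate 1 and 3050 in replicate 2. The NAP-1 knockdown and control samples had 3677 to 3828. Blood cell markers, those of the type S2 cells resemble, reached a mean of 1 RPKM for 8 of 13 listed, with Hml, srp, NimC1, He and LanB2 below it; their summed level was 275 and 350 RPKM after NAP-1 knockdown, 146 and 92.3 RPKM after CBP knockdown, and 455 and 379 RPKM in the controls. After CBP knockdown 6 of the 8 were called lower, alongside ImpL2, where 17.4% of all symbols were. The transcripts of these 8 markers, of 2063 to 11690 nucleotides, fall in length bins 4 and 5. The median differences of these bins were -0.43 and -1.05. The part of the markers in the results above, and of length in their calls, was not tested. The 3 fat body markers listed were all below 1 RPKM. Of 7 muscle and neuron markers listed, 2 reached it, namely Mlc2 and elav, with means of 2.11 and 1.06 RPKM.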

How the data were processed

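The authors deposited 1 table of RPKM values, with the number of alignments per sample as a count. Per the submitters' processing notes the genome build is dm3, while which aligner and counter were used is not given in the sources used here. Of 16381 feature columns, 7156 are named by a symbol alone and 9225 by an mRNA and a symbol. Those averaging 1 RPKM or more, and all features of the genes on the lists used, were taken (4672), and 11709 columns were not used. Columns of a symbol that repeat each other's values were counted once, the rest summed, giving 4019 tested symbols, 413 of them with several features. Symbols that start with 3 digits and names with an apostrophe were left out.

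Differences were fitted in limma 3.58.1 (R 4.3.3) to log2(RPKM + 1) values of all 6 samples at once, with a variance trend and Benjamini-Hochberg adjustment over 4019 symbols at 0.05. RPKM values are not counts, and no count model was fitted. Transcript lengths (3951 symbols) come from the BDGP6 annotation, another build, so no coordinates are given; the length trend is a loess with span 0.5. The 10 genes and the lists were chosen with earlier results of these data known. Besides the 10, the genes named are the called list genes with the smallest p (up to 6 per direction), EcR, gce, Kr-h1, br, Eip74EF, Eip75B, InR, foxo and Thor, the 5 nearest to ImpL2, Nap1 and nej; S6k, path, sgg, 14-3-3epsilon, crol, Chd64, Tor, Hmgs, ERR, woc, Smr, Hsc70-4, Hr96, Hsp83, Npc1a, Jheh2 and Jheh3 were added after their values were seen, to complete counts. Alternatives covered the pseudocount (0.1), the minimum mean (5 RPKM), 2 other scalings, a fit of 4 samples only, a block for the replicate number, no variance trend, single features, transcript length and each sample left out.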

Additional observations from a re-analysis of the deposited data

How the results depend on the processing

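Across 16 alternatives, CBP knockdown against control kept 4 or 5 of the 10 genes called, except with a library left out (0 to 5); JhI-1 missed the threshold with quantile normalization and with the length trend removed, and Jheh1 with the replicate block. The 12 other pathway genes called became 7 with a minimum mean of 5 RPKM (fewer genes tested) and 7 with the length trend removed, and 0 to 13 with a library left out. NAP-1 knockdown against control gave 0 called genes in both sets under every alternative. For NAP-1 against CBP knockdown, of the 10 genes, 3 calls became 0 with pseudocount 0.1, with 4 samples in the fit, with the replicate block and with single features, and 0 to 2 with a library left out. Its 2 other pathway genes became 0 under the same settings and with a minimum mean of 5 RPKM, no variance trend or the length trend removed, and 0 to 3 with a library left out. The cause was not tested.

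Replicate numbers in the titles are the sole link between samples. Deviations of same-numbered samples correlated at -0.24 (NAP-1 and CBP knockdown), 0.24 (NAP-1 knockdown and control) and 0.13 (CBP knockdown and control), so the numbers were not taken to pair them; with the replicate block, 704 symbols were called for CBP knockdown against control, against 1042 without. Summing repeated columns, an alternative chosen after seeing the data, moved Eip63E to -2.42 in that comparison and changed no count over the 10 genes or the other pathway genes. With 2 samples a group, and 1 where a library was left out, the lone sample is assumed to vary like the others. A low RPKM at these depths rests on few reads.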
